A study of Homo sapiens with 4 samples.

Results

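The genes described here are the enzymes that make serine (*PHGDH*, *PSAT1*, *PSPH*), asparagine (*ASNS*), mitochondrial one-carbon units (*SHMT2*, *MTHFD2*), cysteine by transsulfuration (*CBS*, *CTH*) and proline (*ALDH18A1*, *PYCR1*). They are 10 of the 20481 distinct gene symbols on the array, chosen by name. A probe was taken as a member when one of its annotated symbols was one of these names, which gave 16 probes. RNA came from LN229, a human glioblastoma cell line grown in DMEM, after knockdown of *SOX2* with siRNA and after mock knockdown with a non-targeting control siRNA, with 2 arrays for each. The study's methods describe separate transfections for the 2 replicates and name a pair of *SOX2* siRNAs, and the labels do not say which of them an array received. All 4 cultures carried a transfected siRNA, and no untransfected cells were among the arrays used here.

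Serine is built from a glycolytic intermediate in a chain of reactions by PHGDH, PSAT1 and PSPH, and its side carbon feeds the folate cycle when SHMT2 converts serine to glycine in mitochondria. MTHFD2 then oxidises the folate-bound carbon, ASNS makes asparagine from aspartate and glutamine, and CBS and CTH carry homocysteine sulfur into cysteine. Several of these genes are known targets of ATF4, a transcription factor translated when amino acids are short or the endoplasmic reticulum is stressed, which binds a composite C/EBP-ATF element.

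After *SOX2* knockdown, 6 of the 10 genes (*PHGDH*, *PSAT1*, *PSPH*, *SHMT2*, *MTHFD2* and *CTH*) had every probe above background higher on both knockdown arrays than on both mock arrays, and *ASNS* did so on the 2 of its 3 probes annotated to *ASNS* alone. *CTH* was 2.70-fold higher in the mean, and the 2 *ASNS* probes were 2.50- and 2.12-fold higher. *CBS* and *PYCR1* overlapped between groups, and *ALDH18A1* was lower on both knockdown arrays at 0.741 of the mock mean. Of all 21256 probes above background, 21.2% were higher on both knockdown arrays than on both mock arrays, and 25.8% were lower on both. Past 2-fold higher were 1.57% of them. No member passed limma's test at an adjusted p of 0.05, nor did any other probe on the array, so these differences are given as measured sizes with their spread.

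The promoter of *ASNS* is shown because it holds the one composite-element match found upstream of a member, and that of *CTH* because this gene had the largest fold of the 10 with the scaling used here and holds none. Sequences are RefSeq windows of GRCh38.p14, printed from 250 bases upstream up to the listed start, in lower case with motif matches in capitals. The *ASNS* stretch is chr7:97872409-97872658 on the minus strand, and the *CTH* stretch is chr1:70411018-70411267 on the plus strand.
ASNS: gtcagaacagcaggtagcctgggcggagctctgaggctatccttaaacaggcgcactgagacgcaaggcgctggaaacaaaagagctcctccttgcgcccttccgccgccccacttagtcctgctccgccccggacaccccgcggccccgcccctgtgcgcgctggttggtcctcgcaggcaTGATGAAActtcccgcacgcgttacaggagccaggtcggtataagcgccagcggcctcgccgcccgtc
CTH: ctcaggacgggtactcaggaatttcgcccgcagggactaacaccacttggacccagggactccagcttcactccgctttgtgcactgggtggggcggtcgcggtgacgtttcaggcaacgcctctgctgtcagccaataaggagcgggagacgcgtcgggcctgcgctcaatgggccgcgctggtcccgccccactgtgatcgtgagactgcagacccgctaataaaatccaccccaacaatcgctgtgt

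The motifs were searched on both strands of windows running from 250 bases before to 50 after each start. These were TGATGNAA (the composite element, with any base at N), CATTGT (a core bound by SOX proteins) and CACGTG (the E-box). RefSeq windows were at hand for 7 of the 10 members (10 windows), and for *PSPH*, *SHMT2* and *PYCR1* none was used. TGATGNAA was found in 1 of these 7 genes, as TGATGAAA beginning at base -68 from the *ASNS* start, and it occurred in 3.62% of all 35116 windows. CATTGT was found in none of the 7 (10.8% of all windows). The paper lists *CTH* among the SOX2 targets in its map of SOX2 binding in these cells. Binding regions there were assigned to genes over distances much wider than these windows. CACGTG was found in *ALDH18A1* alone of the 7 (7.26% of all windows), and it is shown here because this was the one member lower on both knockdown arrays. Any link between the motif and that direction was not tested. The stretch is chr10:95656817-95656872 on the minus strand, with the match beginning at base -136 from the start.
ALDH18A1: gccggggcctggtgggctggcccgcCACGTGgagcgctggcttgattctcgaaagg

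*SOX2*, the target of the siRNA, read 0.467 and 0.701 after mock and 0.209 and 0.149 after knockdown. Each value is the scanner's signal divided by the 75th percentile of the probes of its array. The groups did not overlap, with a knockdown mean at 0.307 of mock (log2 change -1.69, SE 0.28, limma adjusted p 0.117). The signal-to-noise ratio (S/N) of the *SOX2* probe was 3.06 and 3.17 after knockdown, just above the limit of 3 used to call a probe above background. One field of the labels names the colon line SW620, so 17 markers were read. Of 8 glioma or mesenchymal markers 6 were above background on all 4 arrays, and of 9 colon epithelial markers 1 was. Each array measured RNA of a whole culture, so a lower signal from fewer expressing cells and less RNA per cell cannot be told apart.

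Of the 16 member probes, 15 passed the background filter, which asked for an S/N above 3 on the 2 arrays of one group or the other, and all 15 exceeded 3 on every array. The probe that did not pass was a second *SHMT2* probe (104090), whose S/N lay between -0.76 and -0.13. Among the 15 probes, 10 were higher on both knockdown arrays than on both mock arrays, while 21.2% of the 21256 probes kept on the array were. Just 1 was lower on both, against 25.8% of all kept probes, and 4 overlapped.

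**Figure D1:**
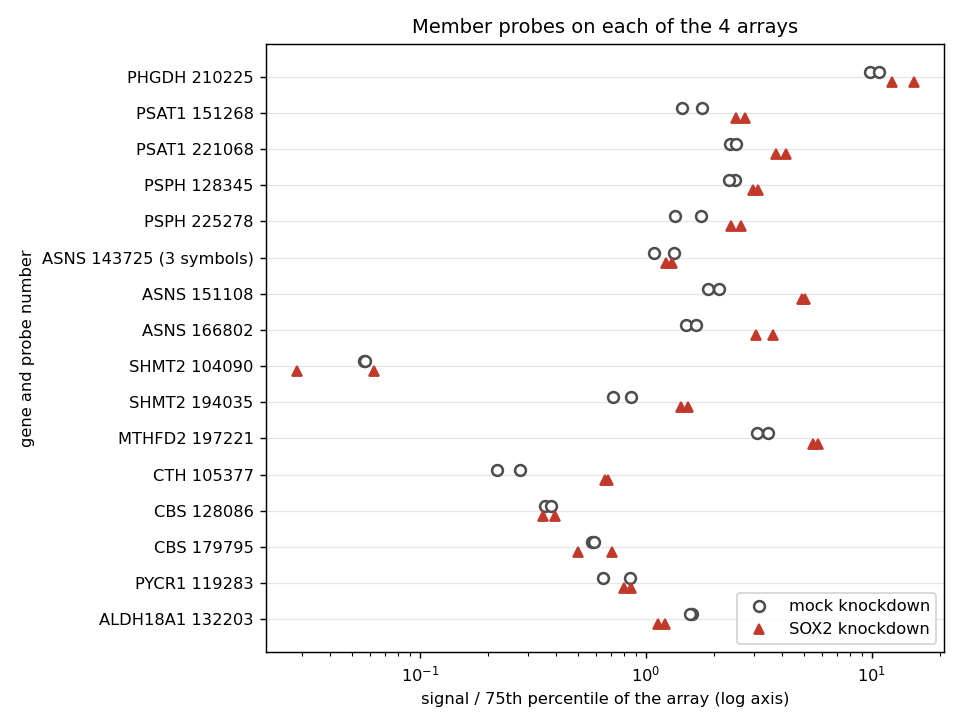
Signal of each of the 16 member probes divided by the 75th percentile of its array (log axis), with open circles for the 2 mock arrays and triangles for the 2 *SOX2* knockdown arrays. The triangles lie to the right of both circles for 10 probes, to the left for *ALDH18A1*, and the *SHMT2* probe 104090 is at background.

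In the serine chain, *PHGDH*, which oxidises the glycolytic precursor in the first step, had the highest S/N of the member probes (93.9 to 130). It read 9.85 and 10.8 after mock against 12.3 and 15.3 after knockdown. The groups did not overlap, but the closest arrays of the 2 groups differed by only 0.18 on the log2 scale and the 2 knockdown arrays by 0.32. The mean was 1.33-fold higher (log2 change 0.41, SE 0.17, limma adjusted p 0.335).

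*PSAT1*, the transaminase of the second step, was measured by 2 probes annotated to it alone. Probe 221068 read 2.35 and 2.49 after mock and 3.77 and 4.15 after knockdown. Probe 151268 read 1.44 and 1.77 against 2.50 and 2.73. On both probes the lower knockdown array was above the higher mock array, and the probes gave nearly the same ratio of means, 1.64 and 1.63 (log2 change 0.71 for both, SE 0.13 and 0.16, limma adjusted p 0.130 and 0.161).

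*PSPH*, the phosphatase that releases free serine, was also higher on both of its probes, to different degrees. Probe 225278 read 1.34 and 1.75 after mock and 2.63 and 2.38 after knockdown, a ratio of means of 1.62. Probe 128345 read 2.48 and 2.34 against 3.13 and 2.97, a ratio of 1.27. The groups were separate on both probes. Their log2 changes were 0.71 (SE 0.18) and 0.34 (SE 0.13), with limma adjusted p of 0.188 and 0.297. Within an array, the log2 ratio of the first probe to the second was higher on both knockdown arrays by 0.36 in the mean, for which the exact permutation test gives a two-sided p of 0.333, the smallest that 2 arrays against 2 allow.

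*ASNS* makes asparagine and is among the genes most used as a readout of amino acid shortage. Probe 151108 read 1.88 and 2.11 after mock and 5.06 and 4.92 after knockdown. Probe 166802 read 1.5 and 1.67 against 3.63 and 3.08. Both were clearly separated, by at least 1.22 and 0.88 on the log2 scale between the closest arrays of the 2 groups. The log2 changes were 1.33 (SE 0.14) and 1.08 (SE 0.16), with limma adjusted p of 0.0833 and 0.105.

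The third *ASNS* probe (143725) behaved differently. It is annotated to 3 symbols, *MGC72080*, *LOC442600* and *ASNS*, and which transcripts it binds was not tested. It read 1.08 and 1.33 after mock and 1.30 and 1.22 after knockdown, so that both knockdown values lay between the mock values (log2 change 0.08, SE 0.16, limma adjusted p 0.897). Within arrays, the log2 ratio of probe 151108 to this probe was 0.80 and 0.67 after mock and 1.96 and 2.01 after *SOX2* knockdown, a difference of 1.25. For probe 166802 the difference was 1.0 (exact permutation two-sided p 0.333 for both). Averaging all 3 probes by the array's gene ID gave a ratio of 2.01 for *ASNS*.

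*SHMT2*, the mitochondrial enzyme that moves the serine carbon to folate, read 0.710 and 0.860 after mock and 1.53 and 1.43 after knockdown on probe 194035. Each knockdown value exceeded both mock values, with a ratio of means of 1.88 (log2 change 0.92, SE 0.16, limma adjusted p 0.119). *MTHFD2*, the next enzyme of the mitochondrial folate route, read 3.48 and 3.11 against 5.76 and 5.50. These too were separate, with replicates that differed by at most 0.17 on the log2 scale and a ratio of means of 1.71 (log2 change 0.77, SE 0.14, limma adjusted p 0.122).

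The 2 transsulfuration enzymes differed from each other. *CTH*, which cleaves cystathionine to cysteine, read 0.277 and 0.218 after mock and 0.655 and 0.681 after knockdown. Its S/N was 4.76 and 5.86 after mock and 10.3 and 11.6 after knockdown, so it was among the dimmer member probes against its own noise. The closest arrays of the 2 groups were 1.24 apart on the log2 scale, and the change was 1.44 (SE 0.17, limma adjusted p 0.0911). With normexp background correction it was 0.96, below 2-fold and below the 1.20 and 1.14 of the 2 *ASNS* probes annotated to that gene alone, and without mock array 2 it was 1.27, below the 1.41 of *ASNS* probe 151108.

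*CBS*, which joins homocysteine to serine in the step before *CTH*, did not separate. Probe 128086 read 0.358 and 0.378 after mock and 0.393 and 0.349 after knockdown. Probe 179795 read 0.576 and 0.587 against 0.704 and 0.497. Its S/N was 7.15 and 3.16 after mock, the second just above the limit of 3, and 9.89 and 9.59 after knockdown. On both probes the knockdown values lay on either side of the mock values. The log2 changes were 0.01 (95% interval -0.36 to 0.38) and 0.02 (95% interval -0.53 to 0.58), so a change of either sign within these bounds is not excluded. Within arrays the log2 ratio of *CTH* to the 2 *CBS* probes was higher after knockdown by 1.43 and 1.42 (exact permutation two-sided p 0.333 for both).

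Neither proline enzyme was higher on both knockdown arrays. *ALDH18A1*, which turns glutamate into the proline precursor, read 1.6 and 1.56 after mock and 1.21 and 1.13 after knockdown. Both knockdown values were lower, and the replicates of a group differed by no more than 0.10 on the log2 scale (log2 change -0.43, SE 0.13, limma adjusted p 0.219). *PYCR1*, which completes proline synthesis in mitochondria, read 0.645 and 0.846 against 0.855 and 0.795, so the groups overlapped (log2 change 0.16, 95% interval -0.33 to 0.65, limma adjusted p 0.776). The ratio of *PYCR1* to *ALDH18A1* within an array was higher after knockdown by 0.59 on the log2 scale (exact permutation two-sided p 0.333).

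**Figure D2:**
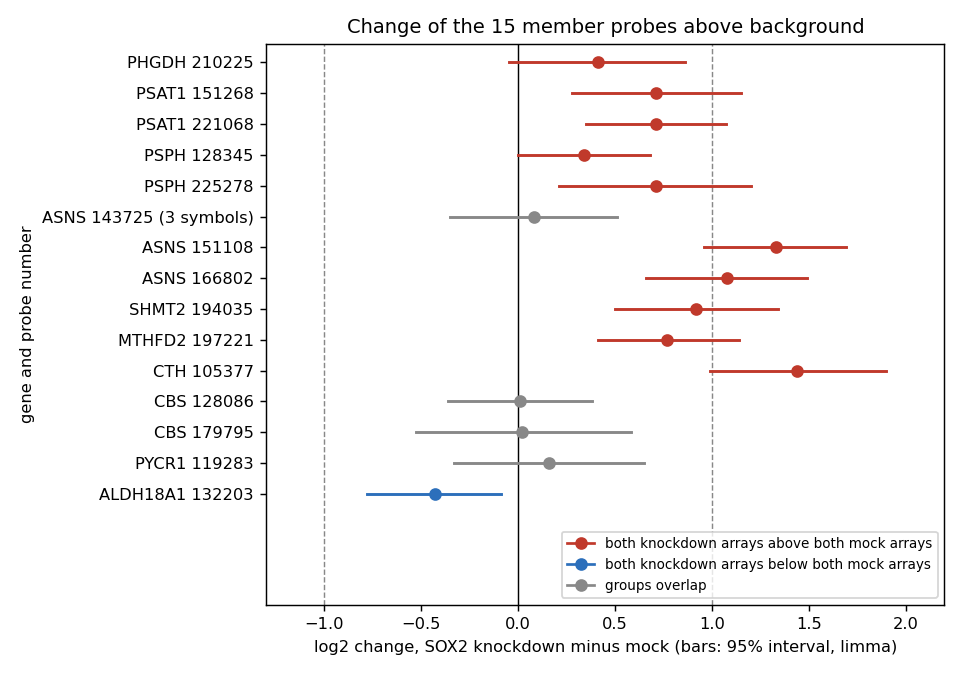
Log2 change (*SOX2* knockdown minus mock) of the 15 member probes above background, with 95% intervals from limma and dashed lines at 2-fold in either direction. The *CTH* probe (1.44) and 2 of the 3 *ASNS* probes (1.33 and 1.08) lie past the upper line, and *ALDH18A1* (-0.43) is the one probe with both knockdown arrays below both mock arrays.

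By the 2-fold cutoff on the replicate means, 3 of the 15 member probes were higher (*CTH* and 2 of *ASNS*), against 1.57% of all kept probes, and 0 were lower, against 1.04%. With limma, 0 of the 15 had an adjusted p under 0.05, as did 0.0% of all kept probes, where the smallest adjusted p was 0.0582. At an unadjusted p under 0.05, 9 of the 15 passed (8 higher, 1 lower), against 17.1% of all kept probes. At an adjusted p under 0.1, 2 of the 15 were higher (*CTH* and *ASNS* probe 151108), against 0.757%. The median log2 change of the 15 probes was 0.71, and over all 21256 kept probes it was -0.00119. With limma's variance trend 4 of the 15 passed an adjusted p of 0.05 (2 *ASNS* probes, *CTH* and *MTHFD2*), against 1.35% of all kept probes. With median scaling, no further scaling or the values processed by the authors 3 passed (2 *ASNS* probes and *CTH*), against 3.89%, 3.65% and 3.57% of all kept probes. These enzymes were proposed for description with earlier results of the same arrays known, so their counts are no independent evidence of a direction.

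Each enzyme with an isozyme in another compartment or with another cofactor can be set against it within an array. *SHMT1*, the cytosolic counterpart of *SHMT2*, read 0.295 and 0.363 after mock and 0.295 and 0.280 after knockdown (log2 change -0.19, SE 0.16, limma adjusted p 0.666). The log2 ratio of *SHMT2* to *SHMT1* was 1.26 and 1.24 after mock and 2.38 and 2.35 after knockdown. This was one of the tightest differences among the pairs, 1.11 with replicates within 0.03 of each other.

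*MTHFD1*, the cytosolic trifunctional folate enzyme, had a log2 change of -0.09, *MTHFD1L*, the mitochondrial formate-releasing enzyme, 0.37, and *MTHFD2L*, the close relative of *MTHFD2*, 0.19 (SE 0.13, 0.17 and 0.20). The log2 ratio of *MTHFD2* to each of them was higher on both knockdown arrays, by 0.86, 0.40 and 0.58. For *PYCR1* to *PYCR3* the groups overlapped, with a difference of 0.05 (exact permutation two-sided p of 1.0). Of the 13 pairs of probes compared, no other than this and the pair of *PSAT1* probes overlapped. Every pair that did not overlap had the exact permutation two-sided p of 0.333, which misses 0.05 before any adjustment. The pairs reuse the same member probes, among them those of *ASNS*, *MTHFD2* and *CTH*, so they repeat the changes given above. How often other pairs of probes on the array do not overlap was not counted.

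**Figure D3:**
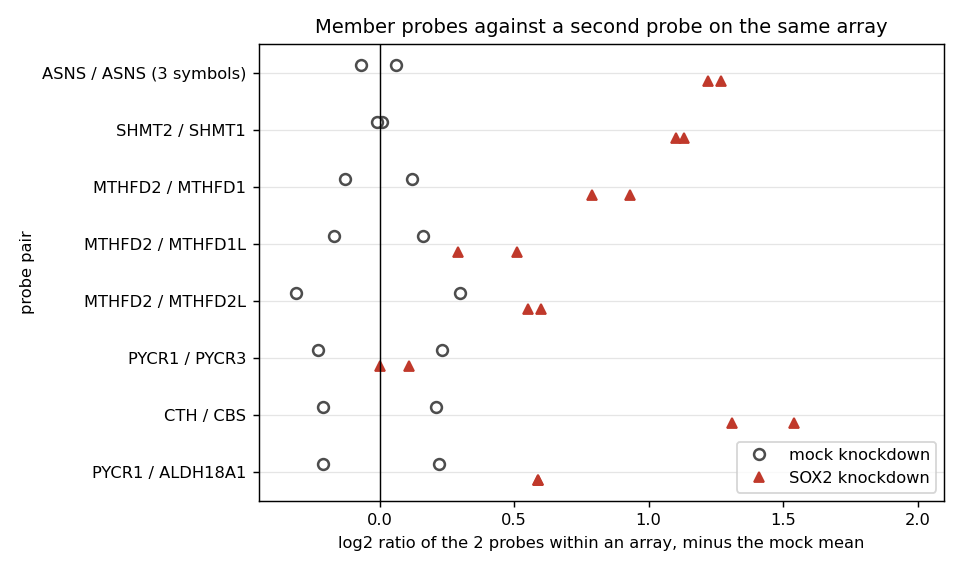
Log2 ratio of a member probe to a second probe on the same array, minus the mean of the mock arrays, for 8 of the pairs (circles, mock arrays; triangles, *SOX2* knockdown arrays). The triangles lie to the right of the circles for every pair drawn except *PYCR1* to *PYCR3*, and lie farthest to the right for *CTH* to *CBS* (1.43) and *ASNS* probe 151108 to the probe with 3 symbols (1.25).

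*ATF4* itself, measured by 2 probes, was higher on both knockdown arrays by small amounts. Probe 183867 read 33.4 and 48.6 after mock and 49.5 and 58.7 after knockdown (log2 change 0.42, SE 0.23, limma adjusted p 0.466). Probe 166946 read 5.96 and 6.69 against 7.17 and 6.75 (log2 change 0.14, SE 0.14, limma adjusted p 0.727). The closest arrays of the 2 groups differed by 0.03 and 0.01 on the log2 scale, less than replicates of the same group did. Arrays measure the transcript, and the ATF4 protein was not measured here.

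The other enzymes of these pathways were read from a list of 69 genes of serine and glycine, folate, methionine and cysteine, proline and arginine, and aspartate and glutamate metabolism, chosen by pathway. Of 78 usable probes 64 passed the S/N filter, from 57 genes. Their median log2 change was -0.06, 12 of the 64 (18.8%, against 21.2% of all kept probes) were higher on both knockdown arrays and 22 (34.4%, against 25.8%) were lower, and 0 passed an adjusted p of 0.05. Among the 10 probes of the serine and glycine list, which holds the glycine cleavage system, 1 was higher and 2 were lower on both knockdown arrays, and none was past 2-fold. Among the 20 folate probes 3 were higher, 8 were lower and none was past 2-fold.

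Past 2-fold were 5 neighbour probes of 4 genes, 3 of them higher and 2 lower (of all kept probes, 1.57% were past 2-fold higher and 1.04% lower). *ASS1*, which uses aspartate to make argininosuccinate, read 0.0182 and 0.0378 after mock and 0.0935 and 0.129 after knockdown, a ratio of 3.98 (limma adjusted p 0.136), with S/N of 2.36 and 3.64 after mock, so that it was above background on 1 of the 2 mock arrays. *GCLM*, the modifier subunit of the first glutathione synthesis enzyme, read 2.2 and 3.31 against 5.77 and 6.14, a ratio of 2.16 (limma adjusted p 0.141). *GLUL*, glutamine synthetase, was lower on both knockdown arrays, 4.05 and 4.54 against 2.28 and 1.95, at 0.493 of mock (limma adjusted p 0.106).

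*GPT2*, the mitochondrial alanine aminotransferase, gave opposite directions on its 2 probes. Probe 143111 read 0.465 and 0.442 after mock and 1.13 and 0.693 after knockdown (ratio 2.01, limma adjusted p 0.203). Probe 135750 was not above background after knockdown (S/N 0.94 and 1.09) and was just above it after mock (3.25 and 4.46). With values floored at 0.01 it was an estimated 2.83-fold higher after mock (log2 change -1.5, SE 0.17, limma adjusted p 0.0872). The size of this change is uncertain, since the knockdown signal was at background. *GOT1*, the cytosolic aspartate aminotransferase, is named after its values were seen. It read 1.28 and 1.35 against 2.68 and 2.49, a ratio of 1.97 (limma adjusted p 0.0990).

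**Figure D4:**
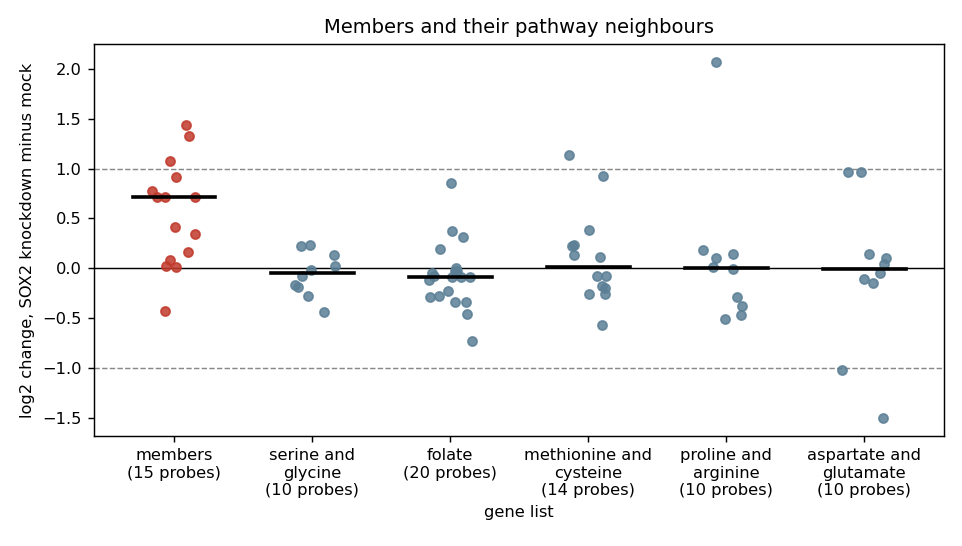
Log2 change of each probe above background among the members (15 probes) and in the 5 lists of neighbouring pathway genes, with a thick line at the median of each list and dashed lines at 2-fold in either direction. The median of the members is 0.71, and the 64 neighbour probes together have a median of -0.06.

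Of the 69 neighbours, 53 had RefSeq promoter windows (79 windows), and TGATGNAA was found in 2 of these 53 genes, *GOT1* and *MTHFD1L*. It occurred in 3.62% of all 35116 windows, so a count of this size does not set the neighbours apart. Some genes had more than 1 window, among them *MTHFD1L* with 4. CATTGT was found in 3 of the 53 genes (10.8% of all windows), among them *GCLM*, and CACGTG in 7 (7.26% of all windows). The 7 included genes higher and genes lower on both knockdown arrays. The *GOT1* and *MTHFD1L* stretches are shown beside that of *ASNS* above, since these are the neighbours that share its motif. *GOT1* is chr10:99430790-99430847 on the minus strand, where the capitals mark the motif on the opposite strand. *MTHFD1L* is chr6:150866332-150866389 on the plus strand, where the first capitals are CACGTG and the second are TGATGCAA.
GOT1: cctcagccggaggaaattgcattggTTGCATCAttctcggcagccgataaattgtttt
MTHFD1L: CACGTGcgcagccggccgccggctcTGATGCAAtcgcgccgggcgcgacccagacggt

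The 3 genes with the motif had ratios of knockdown to mock of 2.50 and 2.12 (*ASNS*, on its own probes), 1.97 (*GOT1*) and 1.30 (*MTHFD1L*). *CTH*, *PSAT1*, *MTHFD2* and *PHGDH*, with no match to it in their windows, had ratios of 2.70, 1.63 and 1.64, 1.71 and 1.33, and *CBS* and *ALDH18A1*, also with no match to this motif, had ratios of 1.01 and 1.03 (the 2 *CBS* probes) and 0.741. A match describes letters in a window and is not a measured binding site.

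To name the genes whose pattern over the 4 arrays was most like that of the members past 2-fold, the median profile of those 3 probes was taken (log2 values around their mean of -0.62 and -0.58 after mock, 0.68 and 0.64 after knockdown). Among 15810 probes of other genes above background on all arrays, *ZNF707*, *RGS7* and *P8* were nearest, at Euclidean distances of 0.0893, 0.0895 and 0.0944 log2 units. Their ratios of knockdown to mock were 2.47, 2.33 and 2.38. *P8* is the array's own symbol, which RefSeq lists as a synonym of several genes. With 4 arrays this likeness is a description of the same 2 against 2 contrast.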

How the data were processed

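Total RNA of 2 mock and 2 *SOX2* knockdown cultures was biotin-labelled and hybridised to 1-colour Applied Biosystems arrays, which are read by chemiluminescence. The source name of each sample gave its group and the title its replicate number. The deposited files hold intensity columns on a linear scale and, per the file headers, a separate S/N column, a score of signal against noise. The scanner software and the meaning of its flag codes are not given in the sources used here. The *PHGDH* probe carried flag code 64 on 2 arrays and was kept. A second deposited table holds a linear ratio per probe made by the authors, with column medians of 0.102 on each of the 4 arrays. It was rebuilt from the scanner files for 100.0% of its 33096 probes, within 1%, by rescaling every array with a single factor, taking each probe relative to its own median (or to 10 if that was larger) and raising values under 0.01 to 0.01. Its scale, centring and direction are therefore known.

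Control features and 210 probes with a flag of 5000 or more were left out. Signal was divided by the 75th percentile of each array, floored at 0.01 and taken as log2. A probe was kept if its S/N exceeded 3 on the 2 arrays of one group or the other (21256 kept, 11630 dropped). Probes were not averaged, whereas the study's methods average by gene ID. Folds are ratios of linear replicate means, with the 2-fold cutoff of those methods. Tests were limma (lmFit and eBayes, two-sided, no block) with Benjamini-Hochberg adjustment over all kept probes, and exact permutation tests for pairs of probes. Tools were R 4.3.3, limma 3.58.1, Python 3.11.15, pandas 2.3.3, numpy 2.4.6 and matplotlib 3.10.9. Tested on simulated arrays of 21256 probes for the same comparison, limma called 96 of 100 probes changed 4-fold and 28 of 100 changed 2-fold, with 7 false calls. The simulated noise was normal and independent between arrays, and every simulated probe was above background. These rates therefore need not hold for the real arrays, where limma called 0 probes at an adjusted p under 0.05. All 98 genes of the lists were found on the array, 4 of them through RefSeq synonyms. No array coordinates are given, since the files name no build. The number of arrays limits the precision.

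The members and gene lists were chosen with earlier results of these data known. Named are all member probes, *SOX2*, *ATF4*, the isozymes, neighbours past 2-fold and the 3 genes nearest in profile, except for 1 gene that is not reported here. The alternatives were quantile, median and no further scaling, the authors' table, normexp with offset 50, other floors, S/N filters and fold cutoffs, a variance trend, gene-ID means, a block for the replicate number, and each array left out in turn. The same-numbered arrays did not deviate together (correlation -0.484 over the kept probes), so the numbers were not taken to pair the samples. The negative sign means that mock array 1 tended to deviate with knockdown array 2, and mock array 2 with knockdown array 1. The fit without a block leaves this in the replicate spread, and its source was not tested.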

Additional observations from a re-analysis of the deposited data

How the results depend on the processing

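The direction of the 11 member probes whose groups did not overlap held under each of the 18 alternatives run. For many of these it was fixed in advance. Other floors, S/N filters, the variance trend and the blocks do not move the log2 change of these probes. Leaving out 1 array cannot reverse groups that do not overlap. The count of member probes with an adjusted p under 0.05 (0 of 15) became 3 with scaling to the array median, 3 with no further scaling, 3 with the authors' table and 4 with a variance trend, and it was 2 at an adjusted p under 0.1. Over all probes those 4 settings called 826, 776, 758 and 287, and the stricter S/N filter on all arrays called 5. In the first 3 of them limma's estimated prior degrees of freedom were infinite, against 2.44 with the 75th percentile, so every probe was given the same variance. Member probes over 2-fold higher numbered 8 at a 1.5-fold cutoff and 0 at a 3-fold cutoff. The share of all kept probes past these other cutoffs was not counted. The numbers at them, here and for the neighbours below, therefore have nothing to be read against. The median log2 change of members was 0.56 with no S/N filter, which adds the *SHMT2* probe at background. Neighbour probes over 2-fold (5) numbered 2 with normexp, 8 with no S/N filter, 3 where all 4 arrays had to exceed an S/N of 3, 3 with gene-ID means, 9 at 1.5-fold and 1 at 3-fold. Over the whole array, the main setting had 334 probes over 2-fold higher and 220 lower of 21256. With normexp these were 140 and 80 of 21256, and with no S/N filter 703 and 670 of 32886. With all 4 arrays above the S/N limit they were 177 and 125 of 19461, and with gene-ID means 271 and 167 of 18378.

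Leaving out 1 array at a time gave 2 to 4 member probes over 2-fold, 10 to 13 separated higher, a median log2 change of 0.51 (without mock array 1) to 0.69, and 4 to 6 neighbour probes over 2-fold. Groups separate more easily with 1 array against 2. Of all kept probes, 6563 of 21662 to 8642 of 22085 were then separated higher, against 4508 of 21256 with all arrays. Over 2-fold higher were 1.99% to 3.53%, against 1.57%. A group of 1 array was then assumed to vary like the other. The values that changed sign were all from probes whose groups overlap. Leaving out 1 array gave -0.07 (without mock array 1) to 0.22 for *ASNS* probe 143725, -0.04 (without mock array 1) to 0.35 for *PYCR1*, -0.08 to 0.10 for *CBS* probe 128086 and -0.23 to 0.27 for *CBS* probe 179795. Otherwise *CBS* probe 128086 was at -0.02 with median scaling, -0.02 with no further scaling and -0.01 with the authors' table, and *CBS* probe 179795 was at -0.01 with median scaling, -0.00355 with no further scaling and -0.45 with normexp.

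With the replicate number as a block, the counts for members stayed at 3, 0 and 10 and the median at 0.71, while 0 of all probes had an adjusted p under 0.1 (241 without the block). The crossed pairing, chosen after seeing the data, gave 2105. The 2 arrays per group, and *CTH*, *SOX2* and *ASS1* signals near background, limit what these arrays can show.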
